A study of Rattus norvegicus with 24 samples.

Results

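The genes of cholesterol and fatty acid synthesis were examined as a set in rat lung. The set of 35 genes was chosen by symbol from knowledge of the pathways. No value of these arrays entered the rule, but earlier results of these data were known when it was chosen. Of these, 34 had a probe set with 1 gene symbol and were measured, among 14217 genes in all. Hmgcs1 was not analysed here. The measured members were 6 enzymes from acetyl-CoA to farnesyl diphosphate (Acat2, Mvk, Pmvk, Mvd, Idi1 and Fdps), 11 enzymes from there to cholesterol (Fdft1, Sqle, Lss, Cyp51, Tm7sf2, Msmo1, Nsdhl, Hsd17b7, Ebp, Sc5d and Dhcr7), and 6 genes of sterol sensing and carriage (Insig1, Insig2, Scap, Srebf1, Srebf2 and Stard4). The others were 4 genes of acetyl-CoA supply and fatty acid chain synthesis (Acly, Acss2, Acaca and Fasn), 5 desaturases and elongases (Scd, Fads1, Fads2, Elovl5 and Elovl6) and the 2 acyl-CoA synthetases Acsl3 and Acsl4.

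Whole RNA of the right caudal lung lobe was hybridised to Rat230_2 expression arrays, 1 rat per array, with 4 male Sprague-Dawley rats in each of 6 groups. All rats were labelled 17 weeks old and had gone through both a nose-only and a whole-body exposure. The nose-only exposure was air or cigarette smoke at 0.48 mg/L for 3 h per day on 5 days per week, over 5 weeks by the sample protocols and 6 weeks by the series text, and in the last 2 weeks the whole-body exposure was air or 1 mg/m3 of Iraqi sand or manufactured silica sand for 18 h per day on 7 days per week. The groups are called air (air by both routes), sand (air, then Iraqi sand), silica (air, then silica), smoke (smoke, then air), smoke and sand, and smoke and silica. The labels name no transgene or drug. Each array holds a different rat, and the p-values measure variation from rat to rat.

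Cells make cholesterol from acetyl-CoA through mevalonate, farnesyl diphosphate, squalene and lanosterol, and fatty acids from the same acetyl-CoA through malonyl-CoA. When sterol in the endoplasmic reticulum is low, Scap carries the precursors encoded by Srebf1 and Srebf2 to the Golgi, where they are cut to transcription factors that turn on most of these enzymes, and when it is high the Insig proteins hold the complex back. In the lung, alveolar type 2 cells use the fatty acids and cholesterol for surfactant, and alveolar macrophages take surfactant lipid up and break it down.

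The promoters of 28 of the 35 genes were found in a RefSeq table of assembly GRCr8, each as 250 bases before and 50 bases after a start site. Pmvk, Fdft1, Sqle, Stard4, Acaca, Fasn and Elovl6 were not matched. On either strand, CCAAT, the motif bound by NF-Y, was in the promoters of 21 of the 28 genes (75%), against 37.5% of 33469 promoters of the same length. GGGCGG, the motif bound by Sp1, was in those of 23 of the 28 (82.1%), against 33.1% of all. The members are counted here by gene and the background by promoter. Counted by promoter, CCAAT was in 22 and GGGCGG in 24 of the members' 29. The classical sterol regulatory element was searched as TCACNCCAC and was in 0 of the 28, against 1.12% of all, which says only that these letters were not in this window. The motifs were counted separately, and occurrences of CCAAT and GGGCGG can share bases. The upstream 250 bases of 4 genes are shown because they place the motif in a member described below by rat (Fdps), in a pair whose levels moved closely together (Msmo1 and Hsd17b7) and in the sensor Insig1. Each is written from 5′ to 3′ on the strand of its gene, with CCAAT or its reverse complement ATTGG in capitals: Fdps at chr2:176804817-176805066 on the minus strand, Msmo1 at chr16:29746863-29747112 on the plus strand, Hsd17b7 at chr13:84722755-84723004 on the minus strand, and Insig1 at chr4:8057770-8058019 on the minus strand.
Fdps: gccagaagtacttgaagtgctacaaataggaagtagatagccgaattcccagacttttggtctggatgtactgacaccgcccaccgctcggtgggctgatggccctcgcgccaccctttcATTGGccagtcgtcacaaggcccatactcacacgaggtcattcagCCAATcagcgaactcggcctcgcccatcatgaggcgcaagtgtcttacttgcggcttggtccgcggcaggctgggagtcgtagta
Msmo1: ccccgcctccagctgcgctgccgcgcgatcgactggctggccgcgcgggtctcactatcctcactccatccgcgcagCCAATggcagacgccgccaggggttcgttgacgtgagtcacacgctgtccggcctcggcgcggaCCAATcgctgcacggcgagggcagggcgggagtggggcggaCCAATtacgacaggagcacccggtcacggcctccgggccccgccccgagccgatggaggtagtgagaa
Hsd17b7: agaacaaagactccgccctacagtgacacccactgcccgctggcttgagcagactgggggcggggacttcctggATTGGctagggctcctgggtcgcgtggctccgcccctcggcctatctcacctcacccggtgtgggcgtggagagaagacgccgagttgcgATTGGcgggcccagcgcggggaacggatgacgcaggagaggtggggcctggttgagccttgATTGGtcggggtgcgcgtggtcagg
Insig1: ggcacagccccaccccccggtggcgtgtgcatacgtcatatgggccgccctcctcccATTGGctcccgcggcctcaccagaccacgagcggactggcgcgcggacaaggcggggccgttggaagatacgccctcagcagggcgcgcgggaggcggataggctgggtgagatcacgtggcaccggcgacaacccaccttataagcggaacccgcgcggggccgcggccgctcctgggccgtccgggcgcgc
Msmo1 held 3 copies and all were forward, at 173, 109 and 68 bases before the start. Hsd17b7 held 3 reverse copies, at 176, 86 and 25 bases before it. Fdps held 1 of each direction, at 130 and 85 bases, and Insig1 held 1 reverse copy at 193 bases. A match is a description of the letters and not a binding site.

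All values are deposited log2 expression values, a difference of 1 being a doubling, and each gene is given by its brightest probe set with 1 symbol. Array medians lay between 7.26 and 7.32. As lung markers, Sftpc ran from 14.79 to 14.95, Scgb1a1 from 14.62 to 14.97 and Pecam1 from 10.13 to 10.82 over the 24 rats. The 3 rats 104, 302 and 604 stood apart from their groups. The mean of 9 heart muscle markers was 9.39 in air rat 104 and 9.10 in sand rat 302, against 5.98 to 6.54 and 5.58 to 5.94 in their group mates. Rat 302 also had the lowest array quality weight, 0.0446. The mean of 9 proliferation markers was 8.35 in smoke and silica rat 604, against 6.72 to 7.23 in its group mates. Results that rest on these rats are given with and without them, and the part of the heart muscle RNA in them was not tested. In RNA of whole tissue, fewer cells of a type and less RNA per cell cannot be told apart.

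**Figure D1:**
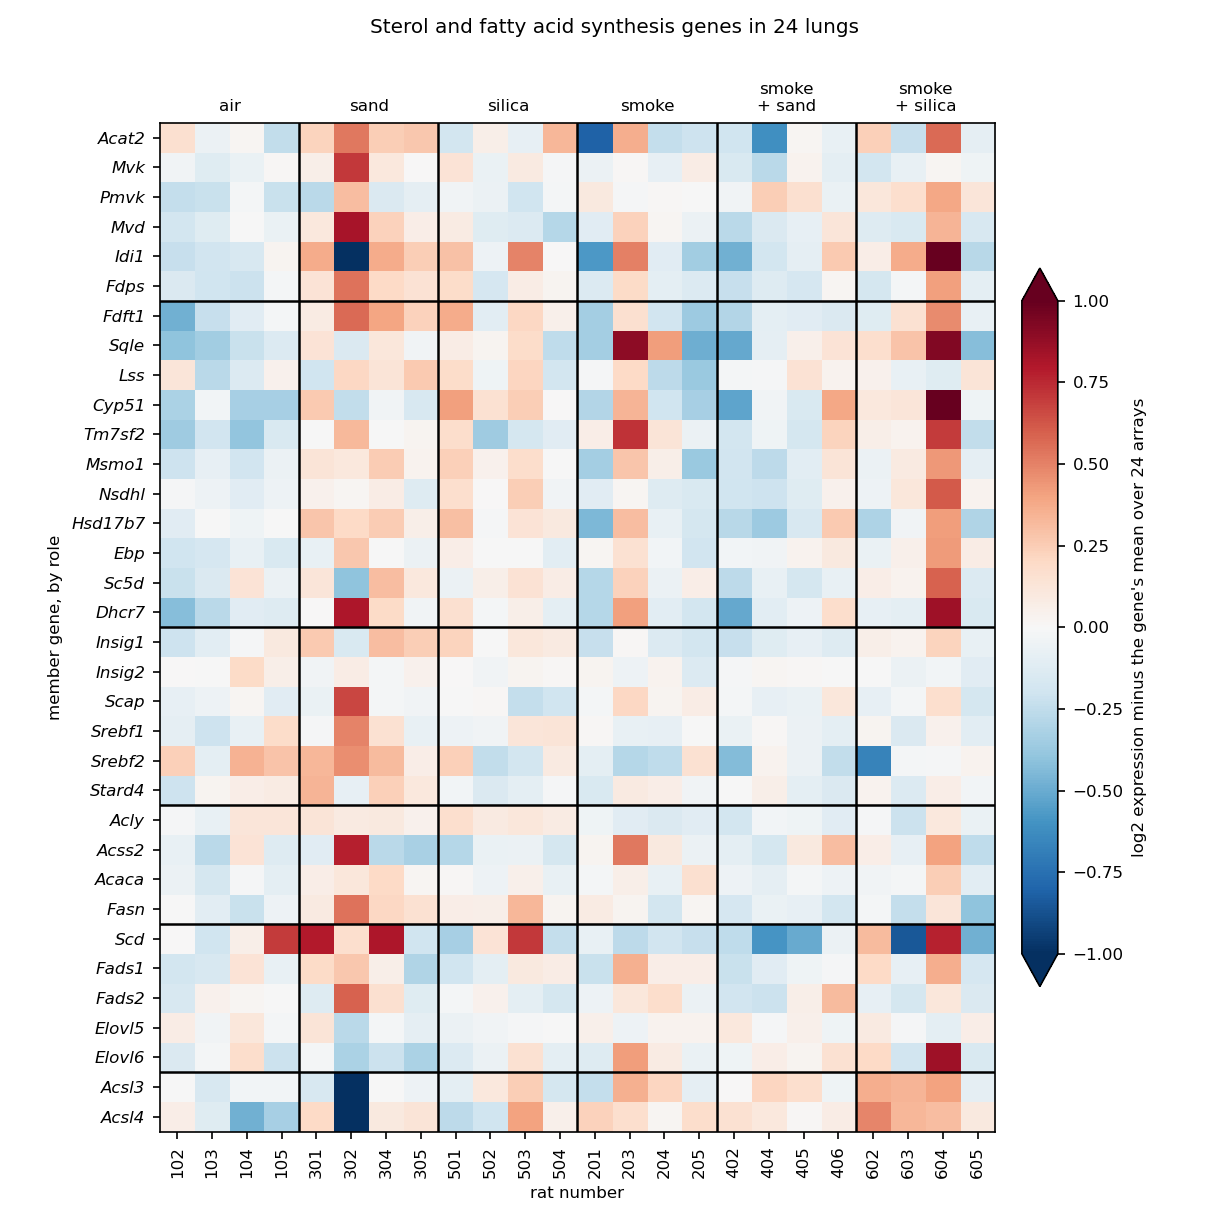
The 34 measured members (in rows, with lines between the roles) in 24 lungs (in columns, by exposure group and rat number), coloured by log2 expression minus the gene's mean over 24 arrays, with colours ending at -1 and 1. Rat 604 was the highest of all 24 rats in 15 members, and rat 302 was the highest in 10 and the lowest in 6.

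The first comparison asked how smoke moved these genes, averaged over the 3 whole-body exposures (12 smoke against 12 air rats). Acly, the ATP citrate lyase that makes cytosolic acetyl-CoA for both pathways, fell by 0.16 (SE 0.04, adjusted p = 0.0118). Srebf2, the transcription factor of the sterol arm, fell by 0.31 (SE 0.09, adjusted p = 0.0432). Pmvk, the kinase that acts after mevalonate kinase, rose by 0.20 (SE 0.06, adjusted p = 0.0433). In limma with Benjamini-Hochberg adjustment over all genes, these were 3 of 34 members (8.82%), against 6.39% of all genes, a share near the background. The members' median difference was -0.03, against -0.02 over all genes.

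Acly was 11.29, 11.22, 11.42 and 11.42 in the air rats, 11.42, 11.38, 11.39 and 11.33 in the sand rats and 11.46, 11.38, 11.41 and 11.38 in the silica rats. It was 11.25, 11.18, 11.15 and 11.18 in the smoke rats, 11.11, 11.26, 11.25 and 11.18 in the smoke and sand rats and 11.28, 11.08, 11.40 and 11.23 in the smoke and silica rats. All smoke and sand rats lay below all sand rats. Air rat 103 was the lowest of the rats without smoke and overlapped the smoke rats, and rat 604 was the highest of the smoke-exposed rats and overlapped the silica rats. The fold change of 0.894 was the best determined of the 3, and the call held without each of the 24 rats in turn (adjusted p from 0.00508 to 0.0236).

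Srebf2 was 10.43, 10.09, 10.53 and 10.47 in the air rats, 10.52, 10.65, 10.50 and 10.25 in the sand rats and 10.42, 9.94, 10.00 and 10.28 in the silica rats. It was 10.09, 9.90, 9.93 and 10.34 in the smoke rats, 9.76, 10.22, 10.13 and 9.94 in the smoke and sand rats and 9.52, 10.17, 10.17 and 10.22 in the smoke and silica rats. The sand and the smoke and sand rats did not overlap, the silica rats spread over the range of the smoke rats, and rat 602 was far below its group mates. The call ended without any 1 of rats 102, 104, 105, 201, 203, 204, 301, 304, 402, 406, 501, 504, 602 and 603 (adjusted p from 0.0506 to 0.0799). A second Srebf2 probe set, whose mean was 5.31 against 10.19, differed by -0.04, and with the mean of both the difference was -0.17 (adjusted p = 0.109).

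Pmvk was 8.65, 8.66, 8.87 and 8.66 in the air rats, 8.62, 9.19, 8.74 and 8.79 in the sand rats and 8.85, 8.83, 8.69 and 8.86 in the silica rats. It was 8.98, 8.87, 8.90 and 8.88 in the smoke rats, 8.85, 9.13, 9.04 and 8.82 in the smoke and sand rats and 9.00, 9.05, 9.27 and 9.00 in the smoke and silica rats. Every smoke rat was above every air rat and every smoke and silica rat above every silica rat, while sand rat 302 reached into the smoke range. The call ended without any 1 of rats 102, 103, 105, 201, 203, 204, 301, 304, 305, 404, 405, 501, 502, 503, 504, 603 and 604 (adjusted p from 0.0510 to 0.0782).

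**Figure D2:**
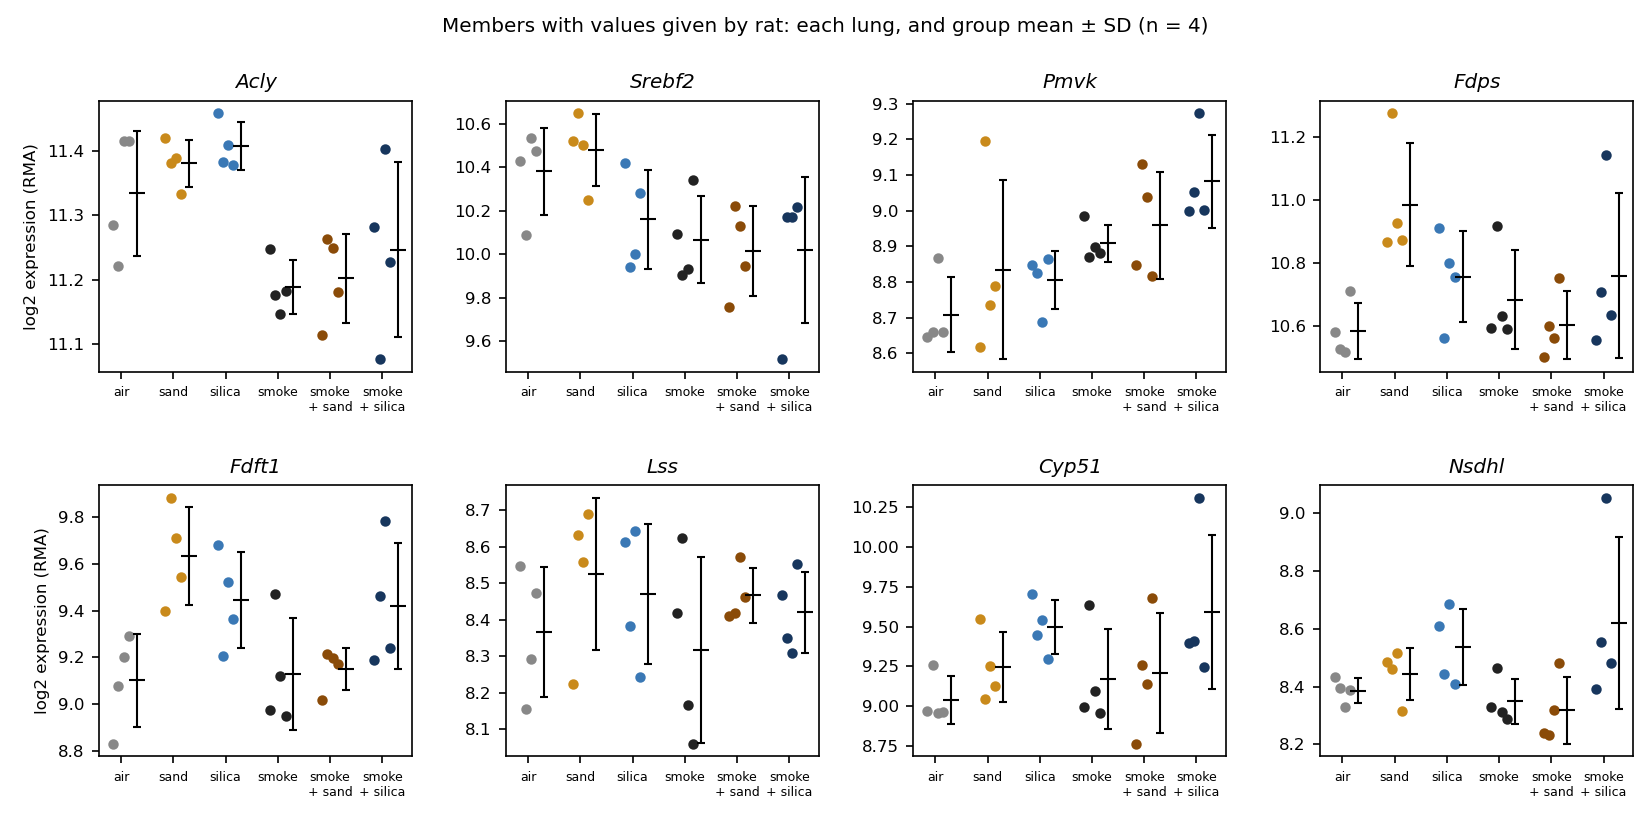
Log2 expression of 8 members in each rat (points), with group mean ± SD (n = 4) beside them, across the 6 exposure groups, each panel on its own scale. Acly and Srebf2 sat lower and Pmvk higher in the 3 smoke groups, and Fdft1 and Fdps were highest in the sand group.

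By role, the 2 acyl-CoA synthetases were both higher under smoke without passing when all arrays were weighted equally. Acsl4, which prefers arachidonate, differed by 0.36 (SE 0.16, adjusted p = 0.165) and Acsl3, which sits on lipid droplets, by 0.27 (SE 0.11, adjusted p = 0.155). Much of both came from sand rat 302, at 9.31 in Acsl4 against 11.12 to 11.22 in its group mates, and without it the differences were 0.21 and 0.17. With array quality weights, which count rat 302 least, Acsl3 passed in limma (0.21, adjusted p = 0.0297) and Acsl4 did not. Fatty acid synthase (Fasn) differed by -0.18 (SE 0.06, adjusted p = 0.0795) and passed without rat 604 (-0.21, adjusted p = 0.0456). Insig1 differed by -0.14 (SE 0.05, adjusted p = 0.107) and passed without rat 302 (-0.18, adjusted p = 0.0120). The stearoyl-CoA desaturase Scd, which makes monounsaturated fatty acids, had the largest difference of the 34, -0.40 (SE 0.17, adjusted p = 0.154). It passed in limma with array quality weights (-0.57, adjusted p = 0.0157). At an unadjusted p under 0.05 there were 11 members, 4 higher (8.95% of all genes) and 7 lower (15.5% of all genes), 32.4% of members against 24.5% of all genes. Of the 11 enzymes from squalene synthase to cholesterol, 0 passed in limma with equal weights and 1, Hsd17b7, was lower at an unadjusted p under 0.05. With array quality weights Hsd17b7 passed in limma (-0.22, adjusted p = 0.0350), a run that called 18.6% of all genes.

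Genes that handle the products of these pathways were counted in the same fit, in which 2.69% of all genes rose and 3.70% fell. Of 11 measured genes of cholesterol efflux, storage and lysosomal release, 2 rose: the sterol exporter Abcg1 by 0.43 (SE 0.07, adjusted p = 0.00154) and the lysosomal acid lipase Lipa by 0.28 (SE 0.06, adjusted p = 0.00847). Of 12 genes of fatty acid uptake and triglyceride storage, the fatty acid receptor Cd36 rose by 0.49 (adjusted p = 0.0494) and the lipoprotein lipase Lpl by 0.39 (adjusted p = 0.0143), and the triglyceride lipase Pnpla2 fell by 0.31 (adjusted p = 0.00322). Of 17 genes of fatty acid oxidation, 2 rose: Acadl by 0.18 (adjusted p = 0.0270) and Ehhadh by 0.35 (adjusted p = 0.0475). Of 14 other lipogenic genes, the mitochondrial citrate carrier Slc25a1, which exports the substrate of Acly, fell by 0.26 (adjusted p = 0.0381) and none rose. Of 8 genes of the isoprenoid branch, which draws on farnesyl diphosphate, 0 passed in limma and 2 were lower at an unadjusted p under 0.05. Beside these counts, 9 of 10 measured macrophage markers rose and 6 of 6 T cell markers fell, with 10 of 13 and 6 of 6 markers measured. The mean macrophage marker level ran from 10.29 to 10.55 in air, 10.56 to 10.95 in sand, 10.65 to 11.06 in silica, 11.25 to 11.74 in smoke, 10.98 to 11.50 in smoke and sand and 11.35 to 11.87 in smoke and silica. The highest silica rat thus overlapped the lowest smoke and sand rat, and the part of these cells in the differences was not tested. Of 11 measured alveolar type 2 markers 1 fell and 0 rose.

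Within single whole-body exposures, limma called 0 members for smoke against air (0.893% of all genes called), with 2 at an unadjusted p under 0.05 (9.95% of all genes). The sterol reductase Tm7sf2 was higher in each of the 4 smoke rats than in each air rat, at 7.88, 8.54, 7.94 and 7.76 against 7.46, 7.63, 7.42 and 7.67, a difference of 0.49 (SE 0.17, adjusted p = 0.2695), or 0.32 without rat 203. With array quality weights limma called Tm7sf2 (0.47, adjusted p = 0.0259) and Pmvk, 5.88% of members against 7.87% of all genes. Tm7sf2 and Pmvk were also the 2 members that did not overlap upward, against 4.86% of all genes. For smoke and silica against silica, 0 members were called in limma (0.00703% of all genes), with 3 at an unadjusted p under 0.05 (8.17% of all genes).

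Iraqi sand without smoke was the group with the highest mean in 18 of 34 members, and air was the group with the lowest in 11. The share over all genes was not counted for these. For sand against air, 29 of the 34 differences were above 0, against 59.9% of all genes, with a median of 0.18 against 0.04. The counts of 18 and 29 were not made without rat 302. In Scap, sand was highest only with that rat, at 9.86 against 9.13 to 9.17 in its group mates and a smoke mean of 9.26. In limma 0 of 34 members passed (0.0281% of all genes), with 8 at an unadjusted p under 0.05, all higher (23.5%, against 7.91% of all genes higher and 10.2% in either direction). With array quality weights, which count rat 302 least, limma called 3 members (8.82%, against 1.41% of all genes): Fdft1, Insig1 and Stard4. The 4 sand rats lay above the 4 air rats, with no overlap, in 11 members, against 3.40% of all genes: Acat2, Mvd, Fdps, Fdft1, Tm7sf2, Msmo1, Hsd17b7, Ebp, Dhcr7, Acaca and Fasn. Without rat 302 it was 16 members against 6.25% of all genes. No member lay wholly below.

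Fdft1, the squalene synthase that commits farnesyl diphosphate to sterol, was 9.40, 9.88, 9.71 and 9.55 in the sand rats, against 8.83, 9.08, 9.20 and 9.29 in the air rats. The groups did not overlap, rat 302 was the highest, and the difference was 0.53 (SE 0.14, adjusted p = 0.215). Its levels in the silica rats were 9.68, 9.21, 9.52 and 9.36, in the smoke rats 8.98, 9.47, 9.12 and 8.95, in the smoke and sand rats 9.02, 9.21, 9.20 and 9.17 and in the smoke and silica rats 9.19, 9.46, 9.78 and 9.24. Fdft1 was the member with the smallest p when all 6 groups were compared at once (F test, adjusted p = 0.103), a test that called 2.67% of all genes and 0 of 34 members, with 7 at an unadjusted p under 0.05 (17.8% of all genes).

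Fdps, the farnesyl diphosphate synthase, was 10.87, 11.28, 10.93 and 10.87 in the sand rats, against 10.58, 10.53, 10.52 and 10.71 in the air rats. It was 10.91, 10.56, 10.80 and 10.75 in the silica rats, 10.59, 10.92, 10.63 and 10.59 in the smoke rats, 10.50, 10.60, 10.56 and 10.75 in the smoke and sand rats and 10.56, 10.71, 11.14 and 10.63 in the smoke and silica rats. The sand rats lay above the air rats and above the smoke and sand rats, and the difference from air was 0.40 (SE 0.12, adjusted p = 0.287). Without rat 302 it was 0.30.

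At the end of the pathway, Dhcr7, the reductase of the last step, differed by 0.48 (SE 0.21, adjusted p = 0.448), or 0.29 without rat 302, and before Fdps the decarboxylase Mvd differed by 0.40 (SE 0.14, adjusted p = 0.349). Mvd was 7.13, 7.85, 7.26 and 7.09 in the sand rats, against 6.84, 6.91, 7.02 and 6.96 in the air rats. The groups did not overlap, but without rat 302 the difference of Mvd was 0.23. In the fatty acid branch, Fasn was 12.03, 12.48, 12.14 and 12.09 in the sand rats, against 11.93, 11.83, 11.71 and 11.89 in the air rats, a difference of 0.34 (SE 0.11, adjusted p = 0.320), or 0.25 without rat 302. Idi1, the isomerase before Fdps, was 9.85, 9.85 and 9.72 in sand rats 301, 304 and 305, all above the air range of 9.24 to 9.51, and 7.99 in rat 302, the lowest of 24, which left a difference of 0.02 (SE 0.34). Over the 17 enzymes from acetyl-CoA to cholesterol, the mean deviation from the 24-array mean was -0.19, -0.16, -0.12 and -0.09 in the air rats and 0.08, 0.18, 0.16 and 0.06 in the sand rats. No sand rat reached down to an air rat in this mean. Beside it, the proliferation marker mean ran from 6.61 to 6.79 in air and from 6.55 to 6.70 in sand, and the alveolar type 2 marker mean from 12.78 to 13.10 and from 13.01 to 13.28. Of 11 type 2 markers 3 were higher at an unadjusted p under 0.05, with a median difference of 0.17, as were 5 of 10 macrophage markers, with a median of 0.39. In limma 0 of either list passed, and their part in the members' differences was not tested.

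**Figure D3:**
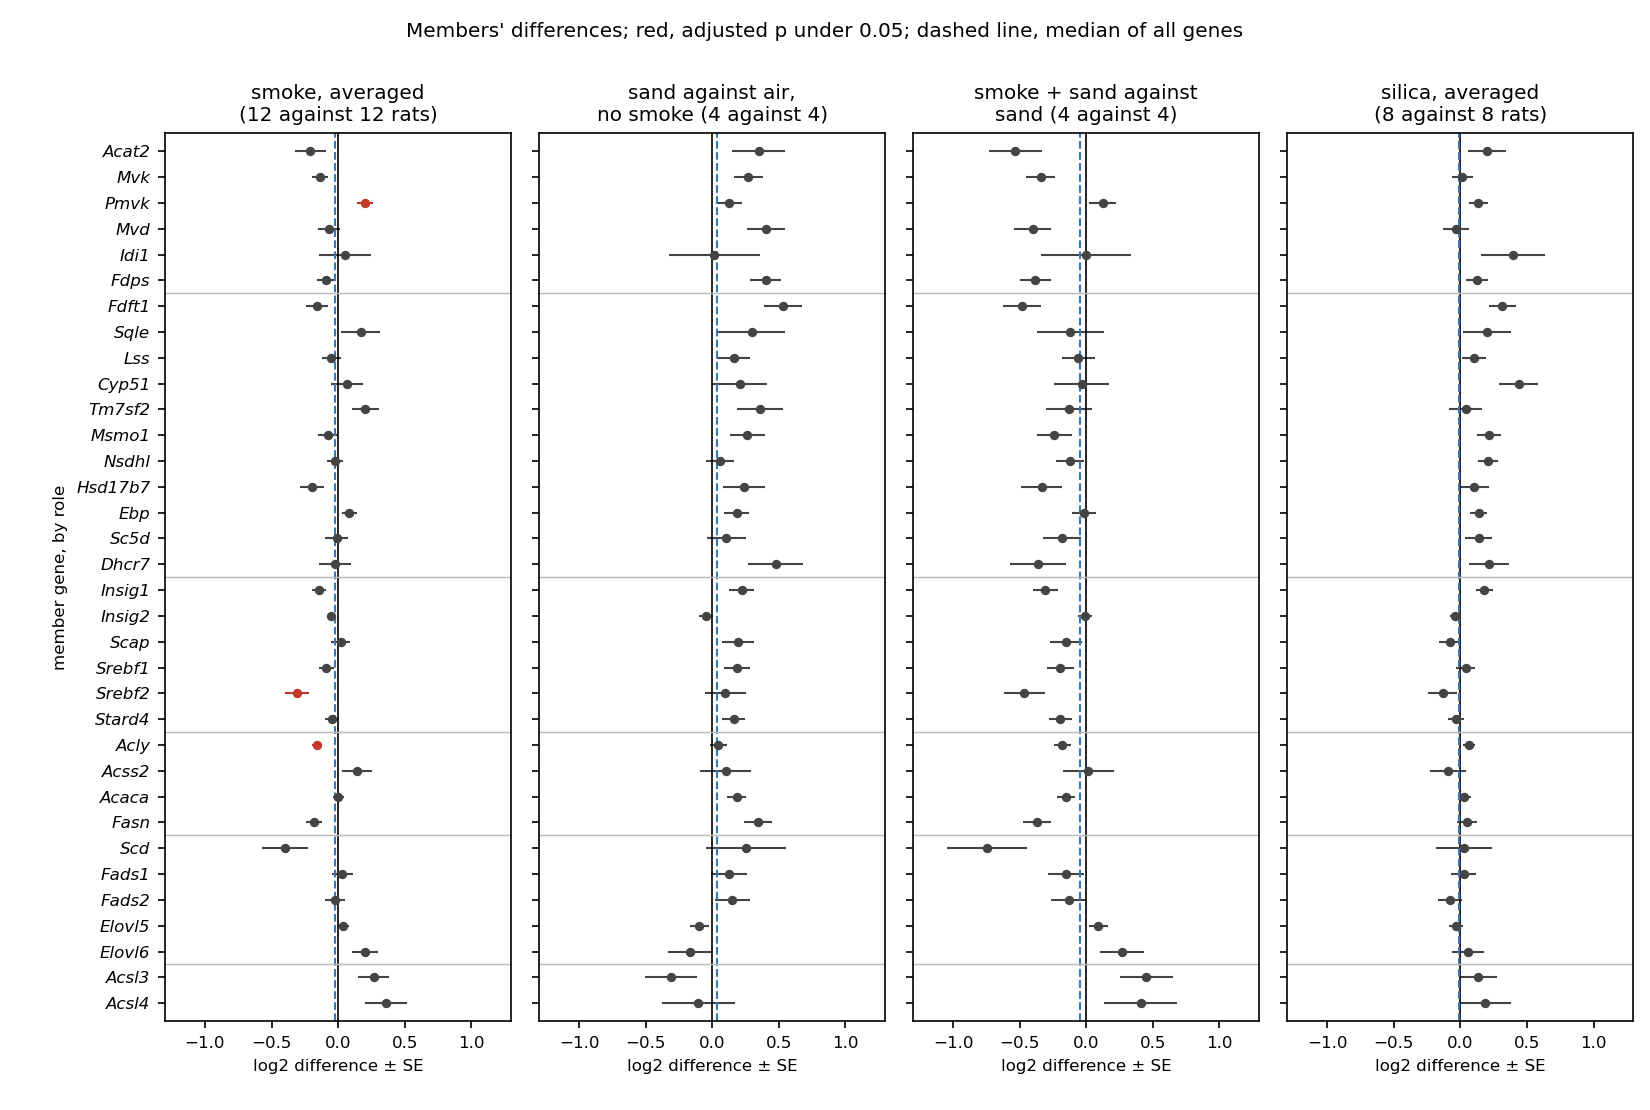
Log2 difference ± SE (horizontal axis) of the 34 members, ordered by role, in 4 comparisons, with the median of all genes as a dashed line and members at an adjusted p under 0.05 in red. The 3 red points are Pmvk, Srebf2 and Acly in the averaged smoke comparison, and the panels of sand against air and of smoke and sand against sand share the sand rats.

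Adding smoke to sand was compared with sand alone. In limma 0 members were called (1.29% of all genes), with 14 at an unadjusted p under 0.05, of which 13 were lower, against 16.0% of all genes, and 1 higher (41.2% in all, against 20.5% of all genes). The median difference was -0.15, against -0.05 over all genes, and 28 of 34 differences were below 0, while 40.3% of all genes were above it. With no overlap, 7 members were lower in the smoke and sand rats, against 6.95% of all genes: Acat2, Fdps, Fdft1, Srebf2, Acly, Acaca and Fasn. Without rat 302, 10 members were lower with no overlap, against 8.83% of all genes. The smallest adjusted p were those of Fasn (-0.37, SE 0.11, adjusted p = 0.0804), Fdft1 (-0.48, SE 0.14, adjusted p = 0.0824), Insig1 (-0.31, SE 0.09, adjusted p = 0.0890) and Fdps (-0.38, SE 0.12, adjusted p = 0.0906). This comparison and that of sand against air share the 4 sand rats, so their values are given side by side and not as separate support. Set against air alone, smoke and sand gave 0 members called in limma (0.978% of all genes), with 2 at an unadjusted p under 0.05 (10.9% of all genes) and a median of 0.02.

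Insig1, which is itself a target of the sterol factor, was 10.73, 10.31, 10.78 and 10.71 in the sand rats and 10.23, 10.34, 10.38 and 10.34 in the smoke and sand rats. Rat 302 alone lay among the smoke and sand rats, and without it the groups did not overlap and Insig1 passed (-0.42, adjusted p = 0.0157). Mvk passed without rat 305 (-0.41, adjusted p = 0.0426) but was at -0.18 without rat 302, and Fdft1 passed with the mean of its 2 probe sets (-0.45, adjusted p = 0.0470). Scd was 10.16, 9.54, 10.18 and 9.17 in the sand rats and 9.11, 8.78, 8.87 and 9.31 in the smoke and sand rats. The difference was -0.75 (SE 0.30, adjusted p = 0.169), and Scd passed in limma with array quality weights (-1.04, adjusted p = 0.041). Of the pathway genes outside the set, Slc25a1 fell by 0.60 (adjusted p = 0.0248), the phosphatidate phosphatase Lpin1 by 0.46 (adjusted p = 0.0420), Coq2 of ubiquinone synthesis by 0.36 (adjusted p = 0.0432), Pnpla2 by 0.42 (adjusted p = 0.0442) and the long-chain dehydrogenase Acadvl by 0.26 (adjusted p = 0.0485). Of 11 type 2 markers 2 fell and 0 rose in this comparison, and 1 of 10 macrophage markers rose. Over all genes 0.928% fell and 0.366% rose. At an unadjusted p under 0.05 in limma, 7 of 10 macrophage markers were higher (median 0.50), against 4.54% of all genes. Lower were 3 of 11 type 2 markers (median -0.13) and 5 of 6 T cell markers (median -0.51), against 16.0% of all genes. The part of these markers was not tested.

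Whether sand moved these genes differently under smoke was tested by the interaction. It uses the same air, sand, smoke, and smoke and sand rats again, so it is not separate support for the comparisons above. In limma 0 members passed (0.00703% of all genes), with 7 lower at an unadjusted p under 0.05 (20.6%, against 7.08% of all genes lower and 8.84% in either direction). The 7 were Mvk, Mvd, Fdps, Fdft1, Tm7sf2, Acaca and Fasn, with differences from -0.27 to -0.61 and adjusted p from 0.493 to 0.541. Without rat 302 the term of Mvk went from -0.38 to -0.22 and that of Mvd from -0.52 to -0.34. Of the 34 interaction terms 29 were below 0, while 41.9% of all genes were above it, with a median of -0.22 against -0.04 over all genes. Beside this, 5 of 10 macrophage markers (median -0.56) and 2 of 11 type 2 markers (median -0.18) were lower at an unadjusted p under 0.05, and their part was not tested. Averaged over air and smoke, sand called 0 members in limma (0% of all genes), and 1 member, Fdft1, was at an unadjusted p under 0.05 (5.22% of all genes; 0.28, SE 0.10, adjusted p = 0.804). Fdps (0.16, SE 0.08, adjusted p = 0.963) and the lanosterol synthase Lss (0.15, SE 0.09, adjusted p = 0.963) followed. Under smoke, sand called 0 members in limma (0.0141% of all genes), with 0 at an unadjusted p under 0.05 (3.83% of all genes) and a median of -0.04. The interaction of smoke with silica called 0 (0% of all genes), with 1 at an unadjusted p under 0.05 (2.24% of all genes).

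Lss was 8.55, 8.15, 8.29 and 8.47 in the air rats, 8.22, 8.63, 8.56 and 8.69 in the sand rats and 8.61, 8.38, 8.64 and 8.24 in the silica rats. It was 8.42, 8.63, 8.17 and 8.06 in the smoke rats, 8.41, 8.42, 8.57 and 8.46 in the smoke and sand rats and 8.47, 8.35, 8.31 and 8.55 in the smoke and silica rats. All 6 groups overlapped.

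Silica, averaged over air and smoke, was set against no particle (8 against 8 rats). In limma 0 members passed (0.345% of all genes), with 5 at an unadjusted p under 0.05, all higher: Fdft1 (0.32, SE 0.10, adjusted p = 0.207), the lanosterol demethylase Cyp51 (0.44, SE 0.15, adjusted p = 0.228), the sterol dehydrogenase Nsdhl (0.21, SE 0.07, adjusted p = 0.260), Insig1 (0.18, SE 0.07, adjusted p = 0.278) and the methylsterol oxidase Msmo1 (0.22, SE 0.09, adjusted p = 0.356). This was 14.7% of members, against 5.09% of all genes higher and 11.7% in either direction, and the median was 0.08 against -0.01. Second, dimmer probe sets gave smaller averaged differences: 0.15 for Fdft1, 0.11 for Cyp51 and 0.06 for Nsdhl. Insig1 and Msmo1 had 1 probe set each. Without rat 604 the members' median was 0.03, and without rat 203 it was 0.13. Of the 34 differences 26 were above 0, against 46.3% of all genes. Beside this, 6 of 10 macrophage markers (median 0.26) and 3 of 11 type 2 markers were higher and 3 of 5 endothelial markers lower at an unadjusted p under 0.05. Of 9 proliferation markers 0 were at an unadjusted p under 0.05, with a median difference of 0.29. The part of these markers was not tested.

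Cyp51 was 8.97, 9.26, 8.96 and 8.96 in the air rats and 9.70, 9.45, 9.54 and 9.30 in the silica rats. These groups did not overlap and differed by 0.46, but by 0.08 in a second Cyp51 probe set. It was 9.55, 9.04, 9.25 and 9.13 in the sand rats, 9.00, 9.63, 9.10 and 8.96 in the smoke rats, 8.77, 9.26, 9.14 and 9.68 in the smoke and sand rats and 9.40, 9.41, 10.31 and 9.25 in the smoke and silica rats. Rats 203, 406 and 604 stood above their smoke-exposed group mates, and without rat 604 the averaged silica difference was 0.32 (adjusted p = 0.381). Nsdhl was 8.43, 8.39, 8.33 and 8.39 in the air rats, 8.61, 8.44, 8.69 and 8.41 in the silica rats and 8.49, 8.46, 8.52 and 8.31 in the sand rats. It was 8.33, 8.46, 8.31 and 8.29 in the smoke rats, 8.24, 8.23, 8.32 and 8.48 in the smoke and sand rats and 8.39, 8.55, 9.05 and 8.48 in the smoke and silica rats. Rat 604 was the highest, the silica and air groups overlapped, and without rat 604 the averaged difference fell from 0.21 to 0.14.

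For silica against air without smoke, 0 members were called in limma (0.141% of all genes), with 2 at an unadjusted p under 0.05 (5.00% of all genes), and the silica rats lay above the air rats with no overlap in 4 members, Cyp51, Msmo1, Dhcr7 and Fasn, against 3.24% of all genes. Under smoke, 0 were called (0.0141% of all genes), with 2 at an unadjusted p under 0.05 (8.29% of all genes), and the median of 0.09 was -0.03 without rat 604. The combined exposure, smoke and silica against air, called 1 member of 34 (2.94%, against 3.77% of all genes), with 7 at an unadjusted p under 0.05 (18.5% of all genes). That member was Pmvk, which rose by 0.37 (SE 0.10, adjusted p = 0.0406) with no overlap, and whose call ended without any 1 of rats 102, 103, 105, 204, 205, 502, 602, 603 and 604 (highest adjusted p = 0.1745). The sterol isomerase Ebp (0.27, SE 0.09, adjusted p = 0.114, and 0.17 without rat 604) and Acsl4 (0.52, SE 0.28, adjusted p = 0.322) also did not overlap, 3 members in all against 7.64% of all genes. Pmvk, Ebp and Acsl4 were called when sand rat 302 was left out, although it belongs to neither side, because all groups share 1 estimate of the spread. With array quality weights limma called 4 members (11.8%, against 17.4% of all genes): Pmvk, Ebp, Acsl3 and Acsl4. In this comparison 4 of 11 genes of cholesterol efflux, storage and lysosomal release rose (2.19% of all genes): Abcg1, Soat1, Npc2 and Lipa. So did 9 of 10 macrophage markers. Of 9 proliferation markers 0 passed, and 6 were higher at an unadjusted p under 0.05 (8.14% of all genes), with a median difference of 0.72. The part of these markers was not tested. Sand against silica, averaged, called 0 members in limma (0.120% of all genes), with 2 lower in sand at an unadjusted p under 0.05 (12.2% of all genes).

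The members not yet described by level stayed closer to their spread. Sqle, the epoxidase that adds oxygen to squalene, ran from 8.30 in rat 402 to 9.73 in rat 604, and its difference for smoke and silica against air was 0.52 (SE 0.25, adjusted p = 0.284), or 0.29 without rat 604. Sc5d, the desaturase of the late sterol steps, ran from 8.85 in rat 302 to 9.84 in rat 604. In both, the highest rat of 24 was 604. Among the sensing genes, Insig2 ran from 8.89 to 9.22, Scap from 8.95 to 9.86 and Srebf1, the factor of fatty acid synthesis, from 9.45 to 10.16, the last 2 with rat 302 the highest. Stard4, a carrier of cholesterol in the cytosol, ran from 8.61 to 9.16. None of these passed in any of the 15 comparisons in limma with all arrays weighted equally. With array quality weights Stard4 passed for sand against air and Sc5d for smoke and sand against sand. In the fatty acid branch, Acss2, which makes acetyl-CoA from acetate, ran from 8.01 to 9.11 and the desaturase Fads2 from 6.94 to 7.74, both with rat 302 the highest. The desaturase Fads1 ran from 10.44 to 11.11 and the elongase Elovl6 from 5.94 to 7.11, both with rat 604 the highest. Elovl6 differed by 0.20 under averaged smoke (SE 0.10, adjusted p = 0.195), or 0.13 without rat 604. None of these 4 passed with equal weights, and Acss2 passed for averaged smoke with array quality weights.

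Pooled over all groups, most enzymes of the sterol path moved together from rat to rat around their group means. No correlation was computed inside a single group. After the group mean of each gene was taken away, the 136 pairs among the 17 enzymes from acetyl-CoA to cholesterol had a median Pearson r of 0.558 over 24 rats, and 123 of them were above 0. Over all gene pairs the median was 0.06. It was 0.664 among the 11 enzymes from squalene synthase on, 0.441 among the 6 before them, 0.266 among the 11 fatty acid members and -0.003 among the 6 sensing and carriage genes. Without rat 302 the median of the 136 pairs was 0.680, and without rats 104, 302 and 604 it was 0.527. These correlations are descriptions: the genes share arrays, RNA and normalization.

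The closest pair was Mvd and Dhcr7 (r = 0.941), followed by Msmo1 and Hsd17b7 (r = 0.910). In the 250 bases before the start, Msmo1 and Hsd17b7 each held 3 CCAAT motifs, Mvk and Nsdhl 5, Mvd 1 and Dhcr7 0. Dhcr7 (0.644), Fdps (0.622) and Tm7sf2 (0.622) had the highest mean correlation with the other sterol enzymes. Lss (0.132), Pmvk (0.203) and Mvk (0.272) had the lowest, so Pmvk, which rose with smoke, had one of the lowest of these means. Idi1 went from 0.286 to 0.714 and Insig1 from 0.289 to 0.618 without rat 302. Srebf2 itself had a mean correlation of 0.115 with them, and the elongase Elovl5 of -0.441.

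Over the 17 enzymes, the rats were first taken from their own group means. Both the 3 highest (604 at 0.43, 203 at 0.34 and 406 at 0.18) and the 3 lowest (605 at -0.22, 201 at -0.19 and 402 at -0.16) were smoke-exposed. Rat 604 of the smoke and silica group had a mean deviation of 0.54 over the 17 enzymes and was the highest of 24 rats in 11 of them. Rat 203 of the smoke group was at 0.29, against -0.23, -0.19 and -0.06 in its group mates, and rat 406 of the smoke and sand group at 0.08, against -0.26, -0.14 and -0.06. In silica the 4 rats were at 0.15, -0.04, 0.10 and -0.03. Rats 203, 406 and 604 were above all their group mates in 15, 12 and 16 of the 17 enzymes.

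The same rats were high in proliferation markers (9 of 10 measured). With group means taken away and 24 rats pooled, the mean of these markers moved with that of the 17 enzymes (Pearson r = 0.923, Spearman rho = 0.828). Without rats 604 and 406, the 2 farthest from the median of the markers, r was 0.877. That run kept smoke-exposed rats 203 (0.34 in the enzymes, 0.60 in the markers) and 605 (-0.22 and -0.60). The air and sand rats spread far less, from -0.09 (rat 103) to 0.09 (rat 104) in the markers. Whether the tie holds in the rats without smoke alone was not tested. Rat 203 was above its group mates in 9 of 9 of these markers, and rats 406 and 604 in 8 of 9 each. By group the marker mean ran from 6.61 to 6.79 in air, 6.55 to 6.70 in sand, 6.59 to 6.88 in silica, 6.58 to 7.57 in smoke, 6.74 to 7.64 in smoke and sand and 6.72 to 8.35 in smoke and silica. Basal airway markers (3 of 4 measured) moved with the enzymes at r = 0.874 and rho = 0.772, and at r = 0.714 without rats 604 and 203. For the alveolar type 2 markers r was -0.092, and for the endothelial markers -0.585, or -0.376 without rats 604 and 501. The lists share the arrays and the RNA with the enzymes. The part of these markers' cells in the shared movement was not tested.

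**Figure D4:**
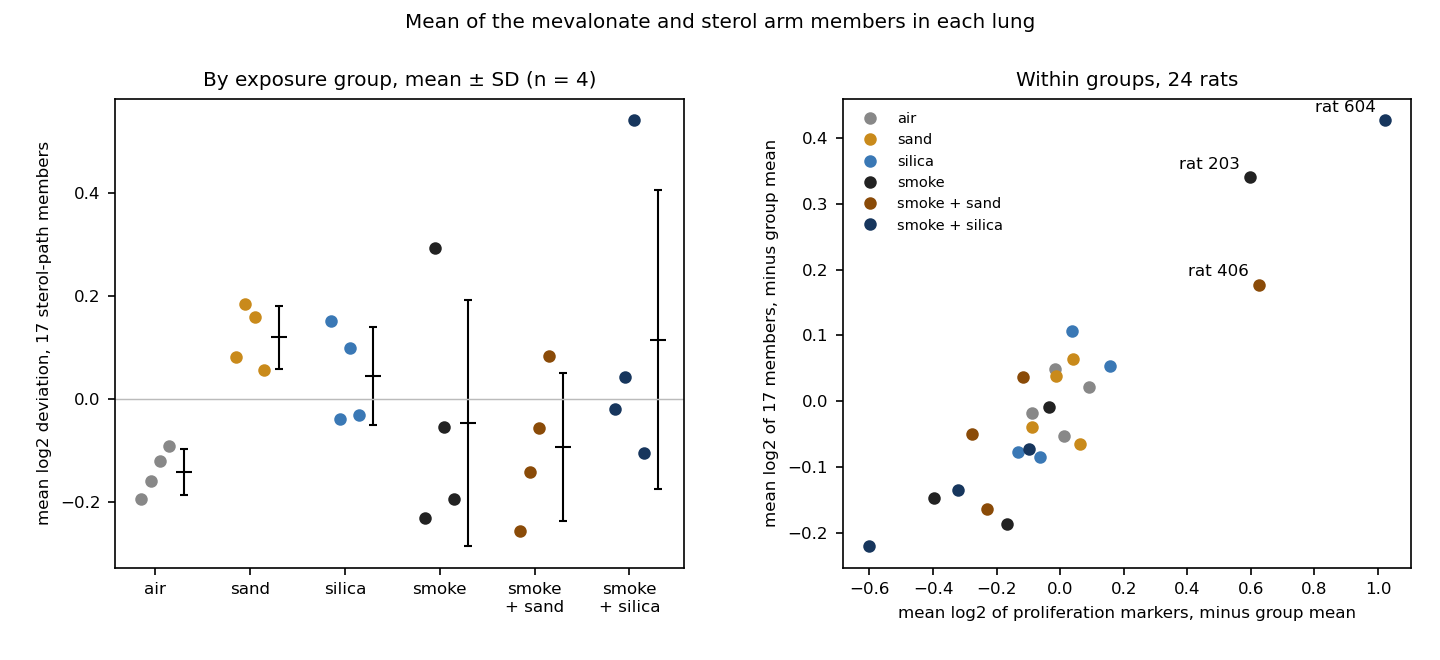
Left, mean log2 deviation of the 17 mevalonate and sterol enzymes from their 24-array means in each rat (points) with group mean ± SD (n = 4). Right, the same mean against the mean of 9 proliferation markers, both minus the group mean, for 24 rats (r = 0.923). The sand and air rats are separate on the left, and rats 203, 406 and 604 lie at the upper right.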

How the data were processed

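Per the submitters' processing notes, the authors summarised the arrays by RMA, and the deposited values are log2 expression levels, already background-corrected and normalized between arrays. The RMA version and a genome build are not given in the sources used here. Of 31099 probe sets, 57 controls were left out, 20826 mapped to a single symbol, 436 to more than one and 9780 to no symbol. The brightest probe set with 1 symbol stood for each of 14217 genes. All genes were fitted in limma 3.58.1 (R 4.3.3) with 6 group means over 24 arrays (18 residual degrees of freedom), and p-values were adjusted by Benjamini-Hochberg over all genes within each of 15 comparisons. An adjusted p under 0.05 was a call. The fit was tested on simulated data. The number of arrays limits the precision. The members and gene lists were chosen with earlier results of these data known.

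Given by rat in every group were the members with a call in any comparison and the 3 with the smallest p for averaged smoke, sand and silica, which came to 8. Other members named for their values, such as those that did not overlap or had a small p, were chosen after their values were seen. Motifs were searched on both strands of 300 bases around each start, and counts per gene were made in the 250 bases before it. Alternatives were the probe set rule, array weights, normalization, RNA integrity number (19 arrays), the level filter and leaving out each rat. Some items are not reported here.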

Additional observations from a re-analysis of the deposited data

Results flagged for a closer look

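In 204 sets of 4 rats (34 members in 6 groups), 20 held a rat whose distance from the nearest group mate was a share of the group's range above Dixon's critical value for 4 samples (9.8%, where chance gives about 1 in 20). Sand rat 302 accounted for 9 of them. It was high in Acat2 (8.56), Mvk (8.71), Fdps (11.28), Tm7sf2 (8.14) and Scap (9.86), and low in Idi1 (7.99), Insig1 (10.31), Acsl3 (7.65) and Acsl4 (9.31).

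Smoke and silica rat 604 was far above its group mates in Mvd (7.37), Cyp51 (10.31) and Dhcr7 (8.40). In the same group rat 602 was far below in Srebf2 (9.52) and rat 605 in Acsl3 (8.81). Smoke rat 203 was high in Fdps (10.92) and low in Elovl5 (12.01), and silica rat 503 was high in Fasn (12.27). Among the air rats, 104 was high in Pmvk (8.87), and 103 was high in Cyp51 (9.26) and low in Acsl3 (8.74).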

How the results depend on the processing

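No call changed direction under any alternative run, but the members' median changed sign in 6 of 15 comparisons with 1 rat left out: smoke under silica, sand under smoke, silica under smoke, sand against silica, smoke and sand against air, and the silica interaction. With array quality weights limma called more members and more genes: 9 members (18.6% of all genes) for averaged smoke, 2 (7.87%) for smoke against air, 5 (3.89%) for smoke and sand against sand, 3 (1.41%) for sand against air, 2 (5.93%) for averaged silica, 1 (8.24%) for smoke and sand against air, 4 (17.4%) for smoke and silica against air and 6 (17.4%) across all groups. For averaged smoke, 1 member (Acly) passed with every probe set tested, and 0 with a term for the RNA integrity number (19 arrays), on those 19 arrays with no such term, or with a minimum of 1.5-fold. For smoke and silica against air, 0 passed under these 4 settings or after quantile normalization over again. For smoke and sand against sand, 1 passed when each gene's probe sets were averaged and 1 without rats 104, 302 and 604. Without those 3 rats, 1 passed for smoke and sand against air and 3 across all groups, and the members' median was -0.0603 for smoke and silica against silica and -0.0341 for smoke and silica against smoke. Leaving out 1 rat at a time, the counts ran from 1 to 4 for averaged smoke, 0 to 1 for smoke and sand against sand, 0 to 3 for smoke and silica against air and 0 to 2 across all groups, and those 2 medians from -0.0603 to 0.1047 and from -0.0341 to 0.1575. The Srebf2 call was also lost on quantile normalization over again (adjusted p = 0.0528) and the Pmvk call on median centring (adjusted p = 0.0622). The causes were not tested, except that 19 arrays hold fewer rats. The counts of members that did not overlap and the correlations without named rats were chosen after seeing the data. No paired analysis was possible because the rat numbers are those of single animals and no number is shared between groups.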
